A study of Homo sapiens with 8 samples.

Results

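The genes described here drive the passage of a cell through G2 and mitosis. They are 52 genes, chosen by name, for which every array probe carrying the gene's symbol was taken, and they were represented by 66 of the 50599 probes and by 52 of the 36337 gene names on the array. The rule reads names and no measured value, although the genes were proposed with earlier results of these data known. A gene with several probes was stood for by the probe with the highest mean over the 8 arrays, and all 66 probes were well above background on all 8 arrays, none of them saturated.

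The 8 samples are one-colour Agilent arrays of RNA from human thyroid cells, 2 arrays for each of 4 groups. Nthy-ori 3-1 is a line of normal follicular thyroid cells immortalised with SV40 large T antigen, which binds the RB family of proteins and p53, and all 4 of its arrays carry this background. Its treated cells received pre-miR-375, a synthetic mimic of the microRNA, at 5 nM, and its controls are labelled CTL. TT is a line from a medullary thyroid carcinoma, a tumour of the calcitonin-producing C cells. Its treated cells received AntagomiR-375, an inhibitor of the same microRNA, at 20 nM, and its controls are also labelled CTL. Cells were transfected with Lipofectamine RNAiMAX and collected after 48 h, the lines being kept in different media (an RPMI medium for Nthy-ori 3-1 and a DMEM/F12 mix for TT). The methods name pre-miR-CTL and antagomiR-CTL as the control reagents of these lines and give higher concentrations than the labels. They call the replicates biological. Treated and control arrays of the same replicate number lay on 1 slide and are called a pair below. Both TT controls carried an RNA integrity number of 8 in the labels and every other array 9. In TT this number and the treatment cannot be told apart, nor can this number and the line between the control groups.

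In G2 the cyclin-dependent kinase CDK1 binds cyclins A and B and is held inactive until CDC25 phosphatases remove its inhibitory phosphates. Active CDK1, together with Polo-like and Aurora kinases, condenses the chromosomes and builds the spindle, while kinetochore proteins tie chromosomes to microtubules and the spindle assembly checkpoint restrains the anaphase-promoting complex (APC/C) until every chromosome is attached. CDC20 then activates the APC/C, securin is destroyed, separase opens the cohesin rings and the cell divides. Most of these genes share a timing of transcription. The DREAM complex represses them in resting cells and in G1, and B-MYB with the MuvB core and then FOXM1 activate them in S phase and G2, acting through the cell cycle genes homology region (CHR), while NF-Y binds their CCAAT boxes.

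The microRNA given or inhibited is shown first because both reagents are directed at it, with its seed, bases 2 to 8, in capitals. Its mature sequence was taken from RefSeq (GRCh38.p14, chr2:219001648-219001669, minus strand).
hsa-miR-375-3p: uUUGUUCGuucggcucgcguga

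The elements shared by these genes are visible in their promoters. RefSeq promoters (GRCh38.p14, 250 bases before to 50 bases after the start of the gene) were at hand for 45 of the 52 genes. The CHR sequence TTTGAA, searched on both strands as was every motif, was present in 32 of 45 promoters (71.1%), against 15.4% of all 27305 promoters of the same length. Its variant TTTAAA was present in 14 of 45 (31.1%, against 12.4%), and CCAAT in 33 of 45 (73.3%, against 35.7%). A CHR of either form stood together with CCAAT in 28 of 45 (62.2%, against 9.49%), and 21 of 45 (46.7%, against 11.3%) held at least 2 CCAAT. The variant is its own reverse complement, and CCAAT matches on opposite strands can share letters. The genes were chosen as mitotic genes and these elements are known from such genes, so the shares are a description. A match does not show binding.

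Below are the 120 bases before the start, all on the plus strand of GRCh38.p14, for 6 genes whose signals are described later. CENPF and ANLN were the lowest relative to control among pre-miR-375 arrays together with BIRC5, ESPL1 the highest, PTTG1 and CDC25B were higher in TT than in Nthy-ori 3-1 controls, and the probes of CCNB1 disagreed between lines. Capitals mark both CHR forms and the CCAAT box on either strand, so that a box on the minus strand reads ATTGG.
CENPF, chr1:214603075-214603194: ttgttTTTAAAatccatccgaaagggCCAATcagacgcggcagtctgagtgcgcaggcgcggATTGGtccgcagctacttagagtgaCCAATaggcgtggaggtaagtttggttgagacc
ANLN, chr7:36389742-36389861: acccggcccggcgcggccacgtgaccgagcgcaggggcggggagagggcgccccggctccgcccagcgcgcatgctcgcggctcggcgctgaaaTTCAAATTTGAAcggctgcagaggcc
ESPL1, chr12:53268179-53268298: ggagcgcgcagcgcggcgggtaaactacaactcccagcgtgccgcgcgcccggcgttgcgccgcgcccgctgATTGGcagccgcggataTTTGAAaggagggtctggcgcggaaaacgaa
PTTG1, chr5:160421735-160421854: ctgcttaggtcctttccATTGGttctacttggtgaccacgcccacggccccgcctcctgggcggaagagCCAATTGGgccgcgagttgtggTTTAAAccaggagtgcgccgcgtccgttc
CCNB1, chr5:69167030-69167149: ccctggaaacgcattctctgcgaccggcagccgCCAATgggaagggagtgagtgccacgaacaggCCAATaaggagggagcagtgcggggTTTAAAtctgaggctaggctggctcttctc
CDC25B, chr20:3786831-3786950: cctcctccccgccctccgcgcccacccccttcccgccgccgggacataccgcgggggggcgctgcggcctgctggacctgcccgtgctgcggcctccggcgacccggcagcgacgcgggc
CENPF, ANLN, ESPL1, PTTG1 and CCNB1 each held a CHR of one form in this stretch. ANLN held TTTGAA on both strands side by side and no CCAAT, in PTTG1 CCAAT matches on opposite strands overlapped, and CDC25B held none of these letters here. CENPF, lower in treated Nthy-ori 3-1 cells, and PTTG1, higher in them, both held TTTAAA with CCAAT.

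The lines were checked against markers of their cells of origin. All 7 C cell and neuroendocrine markers on the array were higher in TT than in Nthy-ori 3-1 controls and passed the test, with CALCA, the calcitonin gene, at 18.5 and 18.6 against 3.91 and 3.57 (normalized log2 signal). Of 7 follicular markers, PAX8 and FOXE1 were higher in Nthy-ori 3-1, whereas TG and NKX2-1 were higher in TT. TSHR was not well above background on any array, and NKX2-1 on none of the Nthy-ori 3-1 arrays.

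The first comparison asked how the 52 genes stood after miR-375 was added to Nthy-ori 3-1 cells. All values below are normalized log2 signals of a probe, and differences are treated minus control on the log2 scale. Of the 52 genes, 40 differed by under 0.3 in size. The median size was 0.14, against 0.25 over all gene names and 0.23 over those well above background on all 8 arrays. By their brightest probes CENPF, BIRC5 and ANLN were lower in both pairs by at least 0.6, and ESPL1 was higher by at least 0.6. These are smaller shares than over all gene names, as given below, and other genes lay close to this limit. The median difference of the 52 genes was -0.04, with -0.11 in pair 1 and 0.03 in pair 2. Over all gene names it was 0.004, and over the 16980 names well above background on all 8 arrays 0.04. The interquartile range of the 52 differences was 0.28, against 0.50 over all gene names. RNA was measured over whole cultures, so fewer cells in G2 or mitosis and less RNA in each such cell cannot be told apart.

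By the direction in both pairs, 22 of the 52 genes were lower and 16 higher, and 14 went opposite ways in the pairs. Over all gene names 27.8% were lower and 32.5% higher in both pairs, and over names well above background on all arrays 32.4% and 40.0%. With a mean difference of at least 0.6, 3 genes were lower and 1 was higher, against backgrounds of 8.74% and 8.61% over all names and of 7.18% and 6.70% over the bright ones. By limma with the pair as a block, no gene had an adjusted p of at most 0.05, as was the case for 0% of all gene names, and the smallest adjusted p among the 52 genes was 0.318. At an unadjusted p under 0.05 there were 7 genes, 5 lower and 2 higher, beside 14.9% of all gene names.

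**Figure D1:**
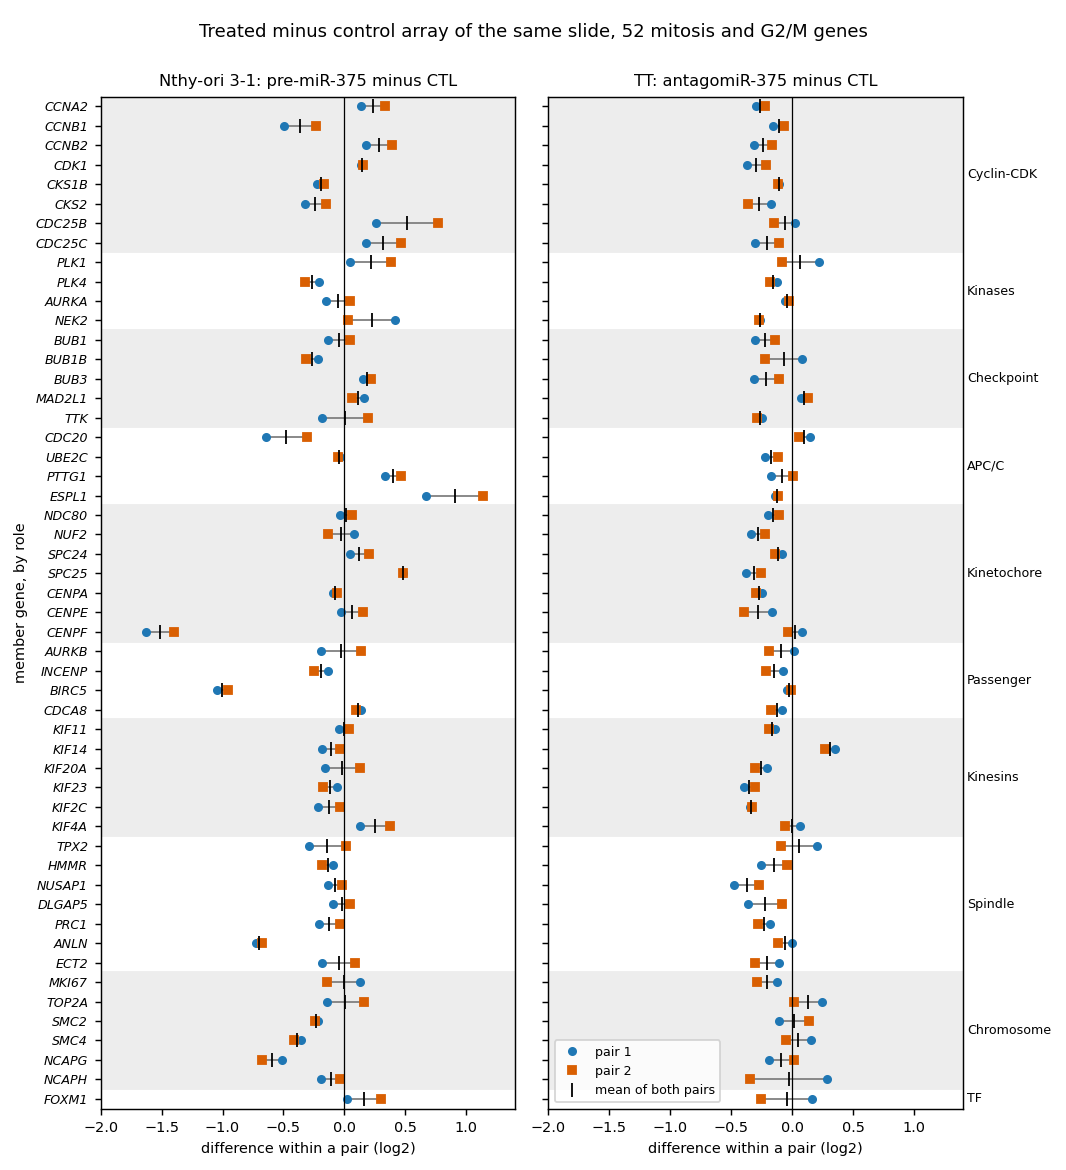
Difference in normalized log2 signal between the treated and the control array of each pair (horizontal axis) for the 52 genes grouped by role (vertical axis), in Nthy-ori 3-1 on the left and TT on the right. Circles are pair 1, squares pair 2 and ticks the mean of both. CENPF (-1.51), BIRC5 (-1.0) and ANLN (-0.70) stand to the left and ESPL1 (0.90) to the right in Nthy-ori 3-1, while in TT 35 of 52 genes lie slightly left of 0 in both pairs and all means lie between -0.37 and 0.31.

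Among the cyclin-CDK genes, 5 of 8 were higher in both pairs and 3 lower. CDC25B, the phosphatase thought to start CDK1 activation at the centrosome, was 11.85 and 11.93 in the controls and 12.11 and 12.70 with pre-miR-375. Both treated arrays lay above both controls, and the difference was 0.51 ± 0.20 (SE, adjusted p = 0.462). Its relative CDC25C differed by 0.32, and cyclins A2 and B2 (CCNA2, CCNB2) by 0.23 and 0.28. CCNB1, cyclin B1, went the other way. It was 14.00 and 14.13 in the controls and 13.51 and 13.90 in treated cells, a difference of -0.36 ± 0.12 (adjusted p = 0.423), and both treated arrays lay below both controls. The second CCNB1 probe gave only -0.11. CDK1 was 12.02 and 12.57 in the controls and 12.16 and 12.72 in treated cells, 0.14 ± 0.08 (adjusted p = 0.579). Its groups overlapped, and a second, far dimmer CDK1 probe gave -0.24. The small CDK-binding subunits CKS1B and CKS2 were lower in both pairs, by -0.20 and -0.24 in the mean.

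The kinases moved little. PLK1, which drives mitotic entry and cytokinesis, was 10.19 and 10.56 in the controls and 10.24 and 10.94 in treated cells. AURKA, the spindle pole kinase, was 12.21 and 13.21 in the controls and 12.06 and 13.25 in treated cells. The differences were 0.22 ± 0.14 and -0.05 ± 0.11 (adjusted p = 0.612 and 0.875), and for each gene the groups overlapped. PLK4, the kinase of centriole duplication, was lower in both pairs (-0.26) and NEK2, which helps to separate centrosomes, higher in both (0.22). Of the 5 checkpoint genes, BUB1B was lower in both pairs (-0.26) and MAD2L1 and BUB3 higher (0.11 and 0.19), with BUB1 and TTK opposite between pairs. The second BUB3 probe gave -0.36 in place of 0.19.

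The genes of the APC/C and of sister separation held both directions. ESPL1, separase, the protease that cleaves cohesin, was 11.89 and 12.16 in the controls and 12.56 and 13.30 with pre-miR-375. Both treated arrays lay above both controls, by 0.67 in pair 1 and 1.14 in pair 2, and the mean of 0.90 ± 0.18 was the largest positive difference among the 52 genes, without passing the test (adjusted p = 0.333). PTTG1, securin, which binds and holds back separase, was 15.34 and 15.25 in the controls and 15.67 and 15.71 in treated cells, again without overlap (0.40 ± 0.09, adjusted p = 0.350). CDC20, the activator of the APC/C, was lower: 11.97 and 12.13 in the controls and 11.32 and 11.82 in treated cells, -0.48 ± 0.14 (adjusted p = 0.395). UBE2C, the E2 enzyme of the APC/C, differed by only -0.04.

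CENPF, a large protein of the nuclear matrix and outer kinetochore, had the largest difference of all. It was 12.28 and 13.20 in the controls and 10.66 and 11.81 with pre-miR-375. Both treated arrays lay below both controls. The difference was -1.62 in pair 1 and -1.40 in pair 2, in the mean -1.51 ± 0.11, or 2.85-fold lower (adjusted p = 0.318). The second CENPF probe, in an earlier stretch of the gene, gave -1.65, so that both probes went the same way. SPC25, a subunit of the NDC80 complex that grips microtubules, was higher: 12.02 and 12.26 in the controls and 12.50 and 12.73 in treated cells, 0.48 ± 0.08 (adjusted p = 0.320), without overlap. The other subunits of that complex did not share this, with NDC80 at 0.02, NUF2 at -0.03 and SPC24 at 0.12. CENPA, the centromeric histone, and CENPE, a kinetochore motor, differed by -0.07 and 0.06.

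Within the chromosomal passenger complex, which corrects wrong attachments and guides cytokinesis, a single member stood out. BIRC5, survivin, was 14.86 and 15.01 in the controls and 13.82 and 14.06 with pre-miR-375. The arrays did not overlap, and the difference was -1.0 ± 0.09, 2.00-fold lower (adjusted p = 0.318), nearly the same in both pairs (-1.05 and -0.96). Its partners differed by -0.03 (AURKB), -0.19 (INCENP) and 0.11 (CDCA8).

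**Figure D2:**
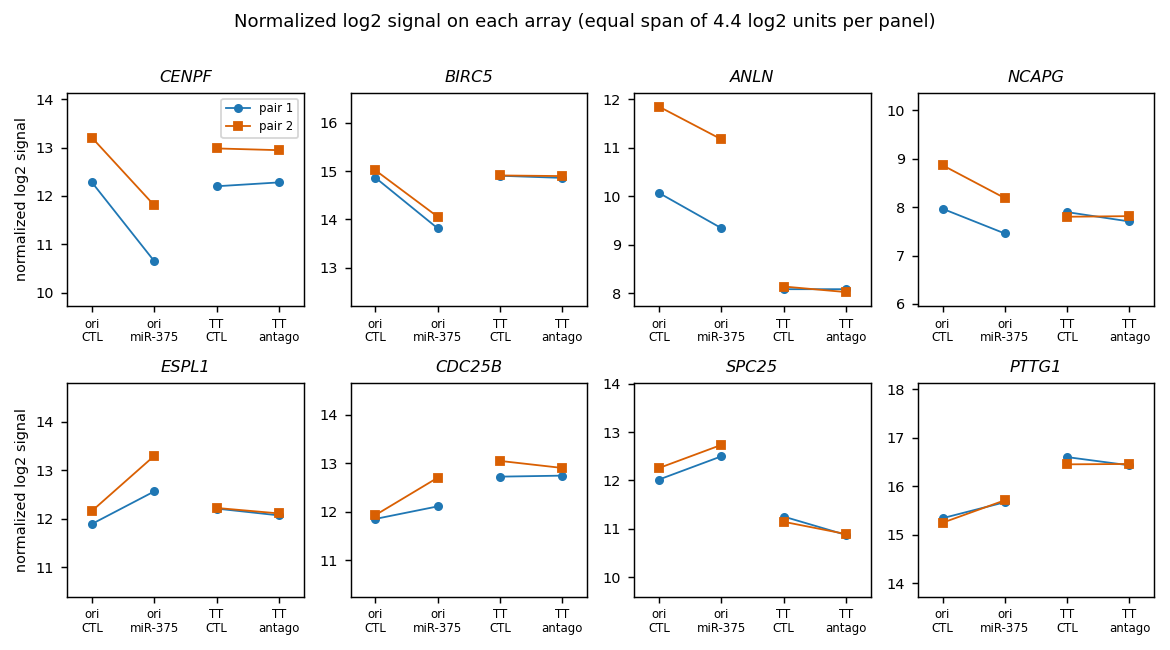
Normalized log2 signal (vertical axis, each panel spanning the same number of log2 units) of 8 genes on each of the 8 arrays, by line and treatment (horizontal axis), with lines joining the arrays of a pair. In Nthy-ori 3-1 the CENPF, BIRC5, ANLN and NCAPG lines slope down and the ESPL1, CDC25B, SPC25 and PTTG1 lines slope up in both pairs, while the TT lines are flatter for most of these genes, and ANLN sits lower and PTTG1 higher in TT.

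The 6 mitotic kinesins, motors of the spindle, stayed between -0.13 and 0.25, with KIF4A the highest. Of the 7 other spindle and cytokinesis proteins none was higher in both pairs and 4 were lower. ANLN, anillin, which organises the contractile ring, was 10.07 and 11.85 in the controls and 9.34 and 11.18 in treated cells. Here the groups overlapped because the replicates lay far apart, yet the difference within a pair was alike (-0.73 and -0.67) and the mean was -0.70 ± 0.08 (adjusted p = 0.318). Of the chromosome structure genes 4 of 6 were lower in both pairs, all of them condensin subunits and each by its brightest probe. NCAPG was 7.97 and 8.86 in the controls and 7.45 and 8.18 in treated cells, overlapping between groups, with a difference of -0.59 ± 0.10 (adjusted p = 0.320). SMC4 differed by -0.39, with -0.63 by its second probe, and NCAPH by -0.11. SMC2 differed by -0.23, but its second probe was higher in both pairs, by 0.18 in the mean.

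By their brightest probes MKI67, TOP2A and FOXM1 differed little. MKI67, the Ki-67 antigen, was 11.30 and 12.11 in the controls and 11.43 and 11.97 in treated cells, -0.01 ± 0.12 (adjusted p = 1), with -0.36 and -0.22 by its other probes. TOP2A, the topoisomerase that untangles sister chromatids, was 8.76 and 11.23 in the controls and 8.61 and 11.39 in treated cells, 0.01 ± 0.13 (adjusted p = 1). FOXM1, the transcription factor of this programme, was 11.98 and 12.38 in the controls and 12.00 and 12.68 in treated cells, 0.16 ± 0.13 (adjusted p = 0.627). In all of these, the arrays of the groups overlapped and the distance between replicates exceeded the difference between treatments.

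The call of the lowest genes depended on the processing. With the deposited log2 table CENPF passed (adjusted p = 0.0379) and BIRC5 did not (0.0522), beside 0.895% of all gene names called lower and 0.385% higher. With normexp background correction CENPF, BIRC5 and ANLN passed (adjusted p = 0.0255, 0.0305 and 0.0448) and no gene passed upward, beside 2.18% of all gene names called lower and 1.28% higher in that fit. Over the alternatives tried the adjusted p ran up to 0.720, 0.583 and 1 for these genes, while the difference stayed between -1.65 and -1.40, -1.10 and -0.93, and -0.77 and -0.67.

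The C cell and neuroendocrine markers differed along with the treatment in Nthy-ori 3-1 cells. Of 7 markers, 5 were higher in both pairs, 4 of them by at least 0.6, and 2 were lower in both pairs, 1 of them by at least 0.6. Well above background were 5 on each pre-miR-375 array against 1 on each control. CALCA was 8.12 and 4.51 in treated cells against 3.91 and 3.57. Their summed linear signal was 0.0882% and 0.0527% of the mean TT control in treated cells and 0.0294% and 0.0223% in the controls, and CEACAM5 was not well above background on any of the 4 arrays. The part of these markers in the differences above was not tested.

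Genes of the same pathway outside the 52 also went both ways. Of 55 other mitosis genes 18 were lower and 25 higher in both pairs, none passed the test, and the median was 0.06. Past 0.6, those lower were SKA2 (-1.21), a kinetochore protein, and SGOL2 (-1.15), a protector of centromeric cohesin. Also lower past 0.6 were BORA (-0.75), an activator of AURKA, and CKAP2 (-0.67), a microtubule-associated protein. Those higher past 0.6 were FAM64A (0.87) and OIP5 (0.61). Of 15 DREAM and MMB regulators 6 were lower and 5 higher, with E2F4 (-0.87) past 0.6. Of 8 CDK inhibitors 4 were higher and 1 lower, with CDKN1A (p21) at 1.02, CDKN2D at 1.01, CDKN2C at 0.72 and the dim CDKN2B, well above background on 5 of 8 arrays, at -0.75. Of 12 G1/S genes 7 were lower and 4 higher, with CCND1, cyclin D1, at -0.89, CCND3 at 0.64 and CCNE2, cyclin E2, at 0.90. None of these passed the test. Over all gene names 27.8% were lower and 32.5% higher in both pairs, and past 0.6 the shares were 8.74% and 8.61%.

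In TT cells the comparison asked how the same genes stood when miR-375 was inhibited. Here the 52 genes leaned one way by a small amount. Of 52 genes 35 were lower in both pairs and 4 higher, while 13 were mixed, against 30.9% lower and 31.2% higher over all gene names and 34.6% and 30.9% over those well above background on all arrays. The median was -0.15, with -0.14 in each pair, beside -0.0003 over all gene names and -0.007 over the bright names. No gene reached a difference of 0.6, against a background of 5.02% lower and 5.49% higher over all names and of 1.57% and 2.79% over the bright ones. No gene passed the test in limma, nor did any of all gene names (0%), and the smallest adjusted p was 0.512. At an unadjusted p under 0.05 there was 1 gene, KIF2C, beside 9.82% of all gene names. The differences were small, 47 of 52 being under 0.3 in size. Their median size was 0.15, against 0.19 over all gene names and 0.16 over the bright names.

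The lean ran through most roles. Lower in both pairs were 7 of 8 cyclin-CDK genes, 6 of 7 kinetochore genes, 6 of 7 spindle and cytokinesis genes, 4 of 6 kinesins, 3 of 4 genes each of the other kinases and of the passenger complex, 3 of 5 checkpoint genes and 2 of 4 APC/C genes. The chromosome structure genes were the exception, with 1 of 6 lower, 1 higher and 4 mixed. FOXM1 was mixed.

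NUSAP1, a protein that bundles spindle microtubules near chromosomes, had the largest difference. It was 11.83 and 11.74 in the controls and 11.35 and 11.47 with AntagomiR-375, -0.37 ± 0.11 (adjusted p = 0.518). KIF23, the kinesin of the central spindle, was 11.59 and 11.60 in the controls and 11.20 and 11.29 in treated cells, -0.35 ± 0.09 (adjusted p = 0.512). In both genes all treated arrays lay below all controls. KIF2C, a kinesin that takes microtubules apart at the kinetochore, was 12.71 and 12.67 in the controls and 12.37 and 12.33 in treated cells, -0.34 ± 0.08 (adjusted p = 0.512). SPC25 was 11.26 and 11.15 in the controls and 10.88 and 10.90 in treated cells, -0.32 ± 0.09 (adjusted p = 0.520). These again did not overlap between groups. CDK1 was 12.00 and 11.92 in the controls and 11.62 and 11.70 in treated cells, -0.29 ± 0.10 (adjusted p = 0.534), with -0.30 by its second probe.

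A handful of genes went against the lean. KIF14, a kinesin of late cytokinesis, was 9.24 and 9.37 in the controls and 9.59 and 9.64 in treated cells, 0.31 ± 0.09 (adjusted p = 0.516), without overlap. TOP2A was 9.00 and 9.58 in the controls and 9.25 and 9.60 in treated cells, 0.13 ± 0.12 (adjusted p = 0.705). CDC20 was 10.67 and 10.82 in the controls and 10.81 and 10.88 in treated cells, and MAD2L1, which inhibits it in the checkpoint, was 10.46 and 10.68 and then 10.53 and 10.81. These last 3 genes overlapped between groups, and both CDC20 and MAD2L1 differed by 0.10 (adjusted p = 0.704 and 0.698).

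The genes lowest relative to control after pre-miR-375 differed little in TT. CENPF was 12.20 and 12.98 in the controls and 12.28 and 12.95 with AntagomiR-375 (0.02 ± 0.09, adjusted p = 0.949), with -0.36 by its second probe. BIRC5 was 14.90 and 14.91 in the controls and 14.86 and 14.90 in treated cells (-0.03 ± 0.08, adjusted p = 0.923). ANLN was 8.08 and 8.14 and then 8.08 and 8.02 (-0.06 ± 0.09, adjusted p = 0.829), and of these genes CENPF overlapped between groups. By their brightest probes CCNB1, AURKA and FOXM1 lay between the -0.21 of MKI67 and the 0.07 of PLK1. The second CCNB1 probe gave -0.32, and MKI67 gave -0.03 and 0.23 by its other probes.

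The wider list leaned the same way in TT. Of 55 other mitosis genes 37 were lower in both pairs and 6 higher, with a median of -0.17 and none past 0.6 or past the test. Of 15 DREAM and MMB regulators 5 were lower and 5 higher, of 8 CDK inhibitors 4 and 2, and of 12 G1/S genes 7 and 5. Past 0.6 were E2F5 (0.77) and CDK6 (0.95) upward and the dim CDKN2B (-1.34) downward. Over all gene names 30.9% were lower and 31.2% higher in both pairs, and past 0.6 the shares were 5.02% and 5.49%. The 7 C cell markers were well above background on all 4 TT arrays, with summed signals of 94.4% and 106% of their mean in the controls and of 105% and 105% in treated cells. Both lower RNA integrity numbers fell on the TT controls, and their part in the lean was not tested.

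Adding and inhibiting the microRNA was then compared by the difference between the effects, as pre-miR-375 minus AntagomiR-375, in a fit over 8 arrays with slide as a block. No gene had an adjusted p of at most 0.05, with 0% called over all gene names and a smallest value of 0.149 among the 52 genes. At an unadjusted p under 0.05 there were 11 genes, 5 lower and 6 higher, against 8.47% of all gene names lower and 8.84% higher. The difference of effects was -1.53 ± 0.16 for CENPF (adjusted p = 0.149), -0.97 ± 0.12 for BIRC5 (0.151) and -0.64 ± 0.13 for ANLN (0.192). Upward it was 1.03 ± 0.22 for ESPL1 (0.200) and 0.79 ± 0.13 for SPC25 (0.169). With normexp background correction CENPF, BIRC5 and ANLN were called lower and SPC25 higher, 3 and 1 of 52 genes against 3.17% and 2.54% of all gene names.

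Opposite directions under the opposite reagents were then counted. CDC20 and KIF14 were lower in both Nthy-ori 3-1 pairs and higher in both TT pairs, 2 of 52 genes against 9.16% of all gene names. The reverse, higher with pre-miR-375 and lower with AntagomiR-375, held for 10 of 52 genes, among them ESPL1, SPC25, CDK1 and CCNA2, against 10.8% of all gene names. Lower in all 4 pairs were 14 of 52 genes, against 8.60% of all gene names, and MAD2L1 alone was higher in all 4, against 10.1%. In TT 35 of the 52 genes were lower in both pairs. That alone raises the counts that need lower in TT and reduces the others. The shares over all gene names lack this lean, so the counts are not read as a link between the reagents.

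In most of the 52 genes the replicates of Nthy-ori 3-1 differed from each other more than treated from control cells did. The control array of replicate 2, on another slide, lay above that of replicate 1 in 43 of 52 genes (82.7%), with a median difference of 0.46, against 50.9% of all gene names and 46.2% of those well above background on all arrays. Of the treated arrays replicate 2 was above replicate 1 in 46 genes, with a median of 0.58. TOP2A was the extreme, 8.76 and 11.23 in the controls and 8.61 and 11.39 with pre-miR-375. KIF14 was 8.29 and 9.70 and then 8.11 and 9.66, and KIF11, the motor that separates spindle poles, was 10.35 and 11.94 and then 10.31 and 11.97. INCENP ran the other way, at 9.61 and 8.75 and then 9.47 and 8.50. In 39 of 52 genes the replicate difference of the controls was larger than the treatment difference, which also held for 62.7% of all gene names and 58.7% of the bright names.

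**Figure D3:**
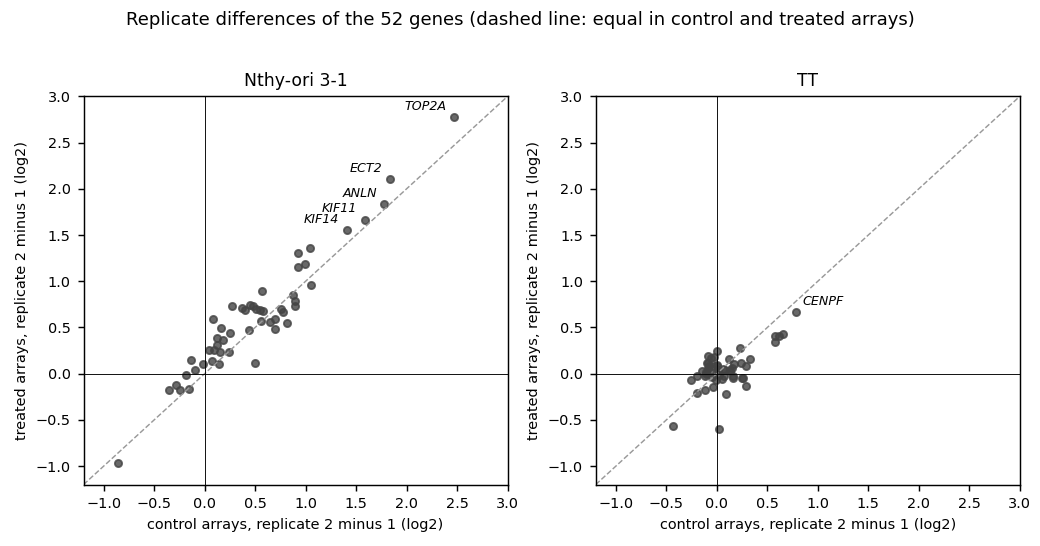
Replicate 2 minus replicate 1 in control arrays (horizontal axis, log2) against the same difference in treated arrays (vertical axis, log2) for the 52 genes in Nthy-ori 3-1 (left) and TT (right), with a dashed line of equality. In Nthy-ori 3-1 the genes spread along the line up to 2.47 for TOP2A, while in TT they gather near 0, with CENPF at 0.78 the farthest in the controls.

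The replicate difference was shared by treated and control cells, with a correlation across the 52 genes of 0.955 in Nthy-ori 3-1, and of 0.801 across bright gene names. Each point shares its arrays and slides with all others, and genes are not independent replicates. In TT the median replicate difference of the controls was 0.02, 30 of 52 genes were higher in replicate 2, the correlation was 0.66, and in 20 of 52 genes the replicate difference exceeded the treatment difference, against 54.7% of all gene names and 51.8% of the bright names. Culture, RNA preparation and slide all changed with the replicate number and cannot be told apart here.

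The control groups gave the third comparison, the level of these genes in a medullary carcinoma line against the immortalised follicular line. Line, medium, slide and RNA integrity number (8 in the TT controls, 9 in the Nthy-ori 3-1 controls) differ together between these groups. The control reagent, which the labels give only as CTL, may differ too, so what follows is a difference between these cultures. Most of the mitotic genes that differed were lower in TT. By limma over the 4 control arrays 9 genes were lower (adjusted p of at most 0.05) and 2 higher, against 12.6% of all gene names called lower and 13.6% higher. The 9 include CCNB1 by its brightest probe, although its second probe was called in the other direction, as described below. Without overlap between groups 26 of 52 genes were lower in TT and 8 higher, against 36.7% and 28.7% of all gene names and 40.7% and 33.4% of the bright names. Past a difference of 1 were 11 genes lower and 2 higher, against 16.3% and 16.2%. The median over the 52 genes was -0.36, beside -0.05 over all gene names and -0.09 over the bright names. The calls did not survive the loss of either TT control array, and fewer were left without replicate 2 of the Nthy-ori 3-1 controls. Such fits leave 1 array in a group. The share of all gene names called in them was not counted, so this loss cannot be read as particular to the mitotic genes. Other settings called more. With the filter on dim probes 15 genes were lower and 4 higher, against 21.6% and 23.1% of the gene names left. Over 8 arrays with slide as a random block 15 were lower and 5 higher, against 15.1% and 15.7%, and with normexp 17 and 5, against 14.7% and 15.1%.

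**Figure D4:**
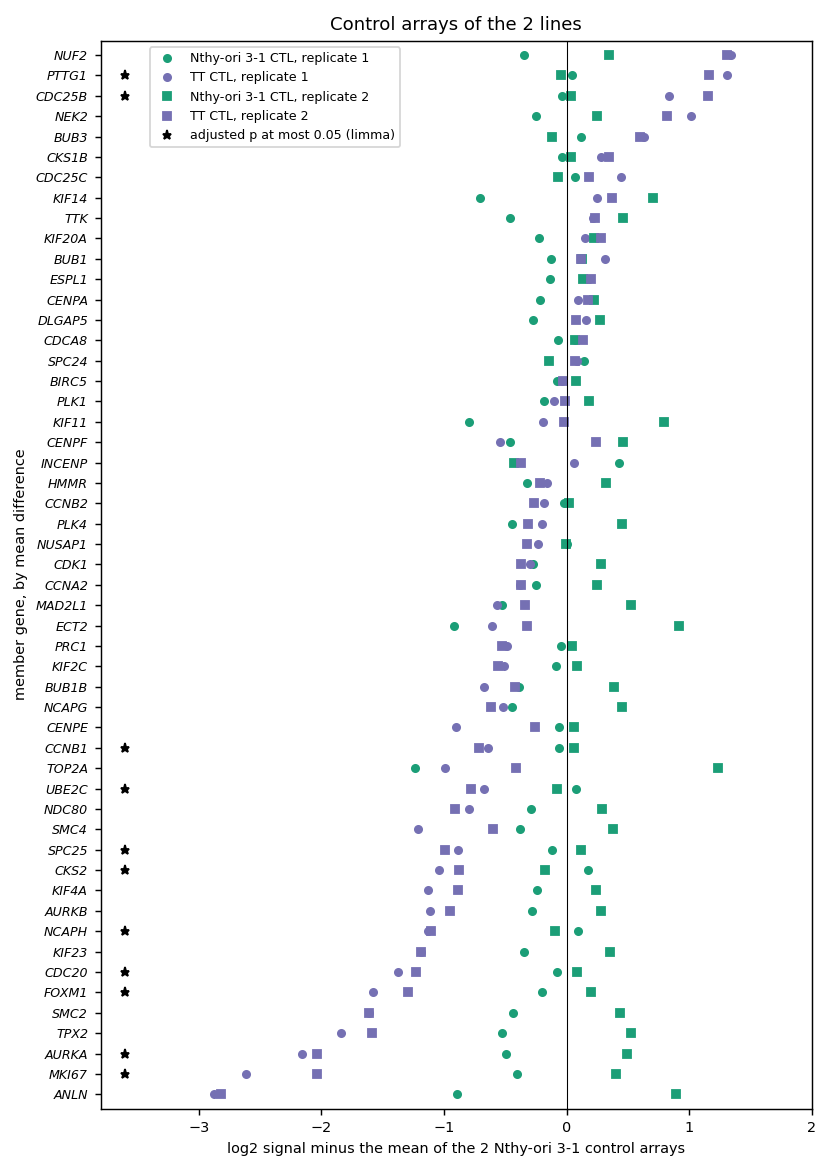
Control arrays of both lines for the 52 genes, ordered by the difference (vertical axis), as log2 signal minus the mean of the Nthy-ori 3-1 controls (horizontal axis), with circles for replicate 1, squares for replicate 2 and stars for an adjusted p of at most 0.05 by limma. NUF2, PTTG1, CDC25B and NEK2 stand to the right and ANLN, MKI67, AURKA and TPX2 to the left, and the Nthy-ori 3-1 replicates lie far apart for TOP2A, ECT2 and ANLN.

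The chromosome structure genes had the lowest median of the roles with several genes, -1.01, and 5 of 6 were lower in TT without overlap. MKI67 was 11.30 and 12.11 in Nthy-ori 3-1 and 9.09 and 9.67 in TT, -2.33 ± 0.41, 5.01-fold lower (adjusted p = 0.0373). Its other probes gave -2.08 and -1.82 (adjusted p = 0.0207 and 0.0827). NCAPH differed by -1.12 (adjusted p = 0.0183). TOP2A was 8.76 and 11.23 in Nthy-ori 3-1 and 9.00 and 9.58 in TT, which lay between the follicular replicates (-0.70 ± 1.0, adjusted p = 0.681).

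AURKA and TPX2, which activates AURKA on the spindle, were both low in TT. AURKA was 12.21 and 13.21 in Nthy-ori 3-1 and 10.56 and 10.68 in TT, -2.09 ± 0.41 (adjusted p = 0.0467). TPX2 was 12.33 and 13.38 and then 11.02 and 11.27, -1.71 ± 0.44 (adjusted p = 0.0813). Neither gene overlapped between lines. PLK1 did, at 10.19 and 10.56 in Nthy-ori 3-1 and 10.27 and 10.36 in TT (-0.06 ± 0.19, adjusted p = 0.868). NEK2 was higher in TT, at 8.58 and 9.08 and then 9.84 and 9.64, 0.92 ± 0.24 (adjusted p = 0.0865). Its second probe gave only 0.20 (adjusted p = 0.384).

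ANLN had the largest difference between lines, 10.07 and 11.85 in Nthy-ori 3-1 and 8.08 and 8.14 in TT. It was -2.85 ± 0.71 with the spread of the follicular replicates against it (adjusted p = 0.0768). FOXM1 was 11.98 and 12.38 in Nthy-ori 3-1 and 10.60 and 10.89 in TT, a call of -1.44 ± 0.23 (adjusted p = 0.0305). CDC20 was 11.97 and 12.13 and then 10.67 and 10.82, -1.30 ± 0.15 (adjusted p = 0.0154). SPC25, CKS2 and UBE2C were also called, at -0.94, -0.96 and -0.73 (adjusted p = 0.0336, 0.0494 and 0.0446).

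A smaller set of genes was higher in TT. PTTG1 was 15.34 and 15.25 in Nthy-ori 3-1 and 16.60 and 16.45 in TT, 1.23 ± 0.14 (adjusted p = 0.0151). CDC25B was 11.85 and 11.93 and then 12.72 and 13.05, 0.99 ± 0.18 (adjusted p = 0.0381). NUF2 was 9.47 and 10.16 and then 11.16 and 11.12, 1.32 ± 0.30 (adjusted p = 0.0616). All 3 were free of overlap, and NUF2 parted from its complex partners NDC80 (-0.85) and SPC25. ESPL1, the partner of securin, differed by 0.19, and its groups did not overlap. BIRC5 lay at 14.86 and 15.01 against 14.90 and 14.91 (-0.03 ± 0.13, adjusted p = 0.897).

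CCNB1 cannot be placed. Its brighter probe was 14.00 and 14.13 in Nthy-ori 3-1 and 13.43 and 13.36 in TT, -0.68 ± 0.13 (adjusted p = 0.0455). The second probe, assigned to the same transcript, was 11.59 and 11.79 and then 12.54 and 12.53, 0.85 ± 0.14 in the other direction (adjusted p = 0.0337). BUB3 had the same kind of conflict, 0.61 by the brighter probe and -0.33 by the other. Of 13 genes with several probes, the probes went the same way between lines in 11, after pre-miR-375 in 10 and after AntagomiR-375 in 9. CDK1 was 12.02 and 12.57 in Nthy-ori 3-1 and 12.00 and 11.92 in TT, -0.34 ± 0.25 (adjusted p = 0.443).

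Other mitosis genes were again mostly lower in TT, 36 of 55 against 10 higher without overlap, with a median of -0.44. Of these 15 were called lower and 1 higher, and 18 were lower past 1. Over all gene names 36.7% were lower and 28.7% higher without overlap. Called were 12.6% lower and 13.6% higher, and 16.3% were lower past 1. Among the DREAM and MMB regulators 3 of 15 were called lower, MYBL2 (B-MYB, -2.27), the pocket protein RBL1 (-3.58) and TFDP1 (-1.11), and 2 higher, E2F5 (2.08) and LIN9 (1.22), a subunit of the MuvB core. Of 12 G1/S genes 3 were called lower and 1 higher, and of 8 CDK inhibitors 3 were called lower and 1, CDKN2D, higher. The calls in these shorter lists stand beside the same shares of all gene names.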

How the data were processed

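For each array the authors deposited Feature Extraction 10.10.1.1 output, whose processed intensity is background subtracted and not normalized between arrays, and a table of log2 values, used here as an alternative. Processed intensities were converted to log2, control and outlier spots were left out, repeated spots were averaged, and quantile normalization over all 8 arrays followed (limma 3.58.1, R 4.3.3). Probe coordinates in the files are those of hg19.

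Each line had its own limma model (lmFit, eBayes) with a block for the pair, and p-values were adjusted by Benjamini-Hochberg over all probes. The difference of effects used 8 arrays with slide as a block, and the control groups 4 arrays without a block. The pairing comes from the slide: arrays of equal number within a line shared it, and their replicate differences correlated at 0.803 in Nthy-ori 3-1 and 0.347 in TT over 22197 bright probes. With 1 residual degree of freedom per line, the prior degrees of freedom were 0.994 and 1.13. An exact permutation test of 2 against 2 arrays cannot go below 0.333 and was not used. Steps were tested on simulated data.

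A gene counted as lower or higher when both pairs, or all arrays of both control groups, went that way, and as past the fold at 0.6 within lines and 1 between them. Genes named with values in every array were 8 landmarks and, per comparison, the 4 highest and the 4 lowest with a shared direction. Others stand as examples of their role. The genes, lists and motifs were chosen with earlier results of these data known. Alternatives were no replicate block, normalization within each line or by the 75th percentile, normexp background correction (offset 50), the deposited log2 table, a filter on dim probes, a joint fit, other probes, other fold thresholds and leaving out arrays. 2 were added after the data were seen, the counts of opposite directions and the background over bright gene names. The number of arrays limits the precision. The values of a further marker gene are not reported here.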

Additional observations from a re-analysis of the deposited data

How the results depend on the processing

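Without the replicate block no call changed, with 0 genes called in either line. The direction counts (22 lower and 16 higher in Nthy-ori 3-1, 35 and 4 in TT) do not use the block. Nor do the medians of -0.037 and -0.147, so neither could change. The median in Nthy-ori 3-1 took the other sign with the deposited log2 table (0.0072), and the deposited table called 1 gene lower and normexp background correction 3. No gene of Nthy-ori 3-1 was higher past a fold threshold of 1. CDK1 in Nthy-ori 3-1 gave -0.048 as the mean of its probes and -0.24 by the second, and CCNB1 between lines 0.085 and 0.85.

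In TT, genes higher in both pairs numbered 2 with the deposited table, and the median was -0.139 with normexp, -0.18 with scaling to the 75th percentile, -0.155 by the second brightest probe and -0.16 over all probes. Genes called lower and higher in TT against Nthy-ori 3-1 controls numbered 15 and 4 with the filter on dim probes, 15 and 5 over 8 arrays with slide as a random block, and 17 and 5 with normexp, and 3 and 0 were past a fold threshold of 2. The difference of effects had 3 lower and 1 higher calls with normexp. The causes were not tested.

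Leaving out a replicate leaves 1 pair or 1 array, assumed to vary like the rest. With 1 pair left every gene counts as lower or higher, and with 1 control array left out the groups overlap less readily. The counts of genes lower or higher can therefore only stay or rise by the rule, and such a rise is not a result. In Nthy-ori 3-1 it gave medians of -0.113 to 0.033, 24 to 34 genes lower, 18 to 28 higher and 1 to 2 higher past the fold. In TT it gave medians of -0.143 to -0.139 and 7 to 14 genes higher. Between controls it gave 9 to 22 genes higher and 26 to 39 lower without overlap, and 9 to 17 lower and 1 to 5 higher past the fold.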
